A study of Populus ussuriensis with 18 samples.

Results

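A set of 218 loci, 0.599% of the 36385 loci in the tables, was followed at the base of stem cuttings of Populus ussuriensis, a poplar, because their transcripts stood highest 1 h after cutting. They were chosen from measured values. The FPKM (read numbers scaled for transcript length and library size) of a locus were added up over its transcripts, and the 2 libraries of each time point were averaged. A locus was kept if its log2(mean FPKM + 1) from 0.5 h to 96 h was highest at 1 h and if its highest and lowest values lay at least 4 apart, which is 16-fold on that scale. The rule did not use the 0 h libraries. With the same range, 160 loci peaked after 0.5 h and 125 after 2 h, while 115 peaked at 6 h, 38 each at 12 h and 24 h, 103 at 48 h and 137 at 96 h, so 218 of 934 loci with such a range had their highest level at 1 h.

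All groups were in vitro plants aged 2 weeks, kept on reduced-strength Murashige and Skoog medium with sucrose at 20 g/L, at 25 °C, with 16 h of light in each day. The stems were cut and the lowest 0.5 cm was collected right away (0 h) or after 0.5, 1, 2, 6, 12, 24, 48 or 96 h, with 2 RNA sequencing libraries at each of the 9 time points. No time point has a group of uncut plants of its own, so time after cutting and time in culture or of day cannot be told apart. Whether the 2 libraries of a time came from separate plants or cultures is not stated in the labels. The p-values below therefore reflect only how far these libraries scatter, a scatter that may be technical.

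Cutting a stem wounds the tissue and separates it from the root. Wounding of plants is known to set off fast calcium and electrical signals, then the hormones jasmonate and ethylene, and with them a short-lived wave of transcripts for signalling proteins and transcription factors that rises and falls within hours. In poplar the cut end of a stem later forms adventitious roots, which are roots that arise from tissue other than a root. The identifiers of these loci are not paired with gene names in the files, and gene functions were not analysed here, so none of the 218 loci is placed in that wave by name. Loci are given by their identifiers, in which the digits before G are read as the chromosome.

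The libraries held between 28460172 and 30651830 reads after cutting, and 21914571 and 25026198 reads at 0 h, as recovered from the steps between low FPKM values. At 1 h the read number of a locus of the set ranged from 169 to 76707 in library 1, with a median of 3690.5, and from 137 to 77136 in library 2, with a median of 3502. At 96 h the medians were 68 and 55.5 reads, and 34 and 38 of the 218 loci had fewer than 10 reads. Low levels late in the course therefore rest on few reads, and these numbers cover counting error only. In some loci the low read numbers were all even. Potri.015G031000, chosen after its values were seen, had 38, 46, 16, 12, 28, 16, 12, 6, 2 and 2 reads from 6 h on. Whether both ends of a fragment were counted as 2 reads was not tested. Reads of a locus with several transcripts may be listed more than once.

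The 0 h files differ in kind from the later ones. For each transcript a length was chosen that makes all its values above 0 after cutting whole numbers of reads, within 0.01 reads. Such a length was found for all 343 transcripts of the set. The 2530 values after cutting of loci with 1 listed transcript, and the 2857 of those with several, are therefore whole by this choice. The 0 h values had no part in it. At 0 h 91.3% and 89.5% were whole for loci with 1 listed transcript, and 16.2% and 8.1% for loci with several. Each comparison with 0 h carries this difference, and it cannot be told apart from the time effect.

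The 0 h libraries also stood apart from each other in these loci. The median FPKM of the 218 loci was 1.64 in library 1 and 4.88 in library 2, and 184 of the 218 were higher in library 2. Among the 191 loci above 0 in both, the median ratio of library 2 to library 1 was 2.76, with quartiles of 1.54 and 5.47. Over all loci tested this ratio was 0.982, and 43.5% were higher in library 2. It was 2.76 in loci with 1 listed transcript and 2.75 in loci with several. At the other 8 time points the median ratio of the set lay between 0.854 and 1.096. The loci that were highest at 0.5 h had a ratio of 2.49 at 0 h, those highest at 2 h 1.155, and those highest at 6, 12, 24, 48 or 96 h between 0.85 and 0.982. How soon after cutting either 0 h library was frozen is not stated in the labels. For the 218 loci as a whole, the counts of calls against 0 h are therefore also given with either library left out.

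**Figure D1:**
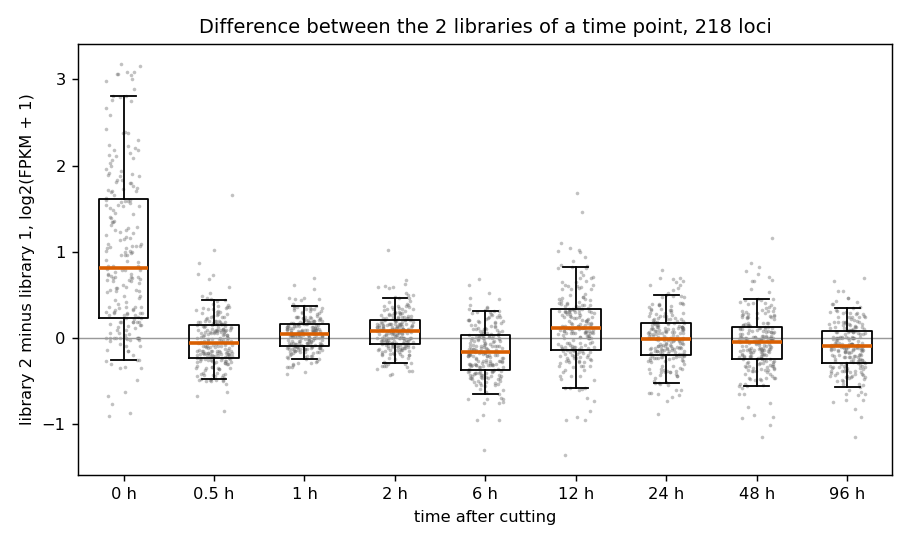
Difference between the libraries of each time point, as log2(FPKM + 1) of library 2 minus library 1, for the 218 loci. Each point is a locus, the box spans the quartiles with the median in orange, and the whiskers reach the 5th and 95th percentiles. The box at 0 h lies above 0, and those at the 8 later time points lie around 0.

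The course of the set was a steep rise to 1 h and a steep fall by 6 h. The median FPKM over the 218 loci rose from 3.79 at 0 h to 42.1 by 0.5 h and 90.3 by 1 h, then sank to 37.9 by 2 h and 5.17 by 6 h, and further to 3.18, 2.65, 2.25 and 1.57 by 12, 24, 48 and 96 h. The peak at 1 h and the range of each locus are fixed by the rule, and these values carry no test. Rise and fall among the times after cutting describe the measured levels alone. The place of the fall is not fixed by it. The median locus held 46.0% of its 1 h level at 0.5 h, was back to 39.3% of it by 2 h and 4.91% by 6 h, and ended with 1.80% after 96 h. The level first went under 10% of that at 1 h by 2 h in 5 loci, by 6 h in 155 and by 12 h in 33, and only by 24, 48 or 96 h in 18, 4 and 3 loci. The lowest level was reached at 96 h by 126 loci, at 48 h by 42, at 24 h by 20, at 12 h by 19 and at 6 h by 11.

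**Figure D2:**
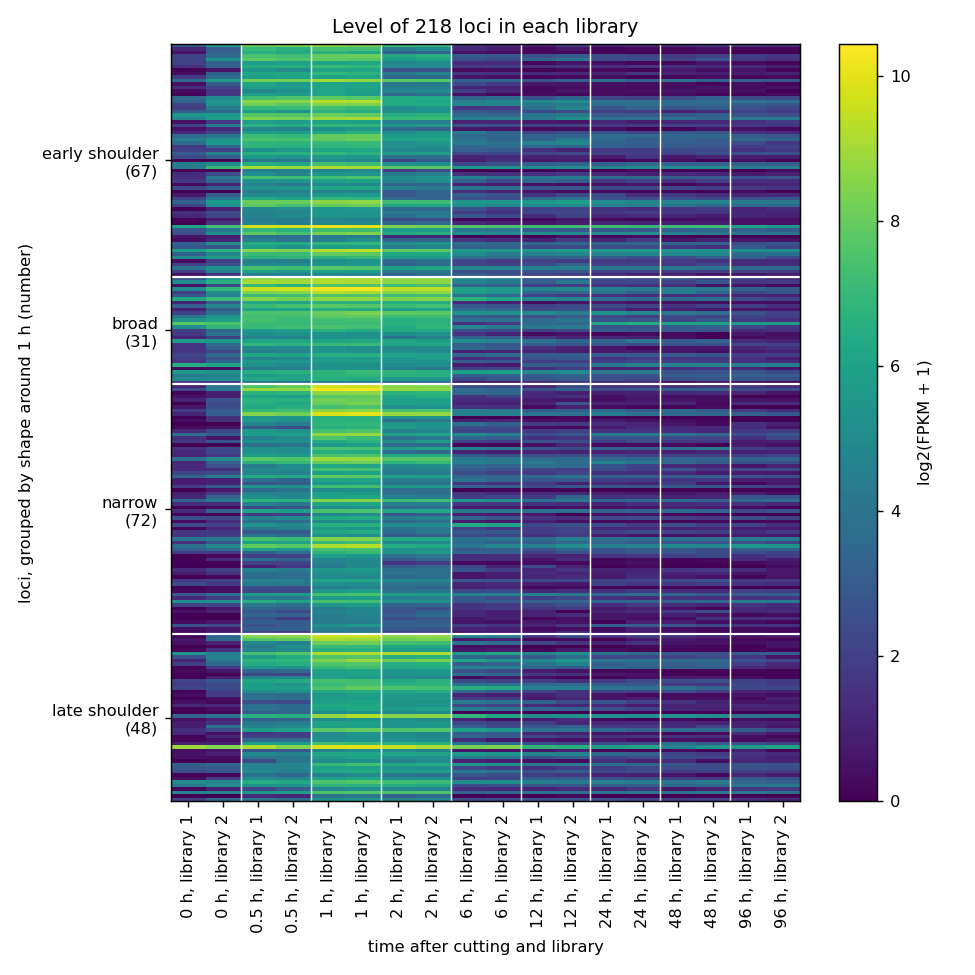
Level of each of the 218 loci (rows) in each of the 18 libraries (columns) as log2(FPKM + 1), with the loci grouped by the shape of their peak. The bright block spans 0.5, 1 and 2 h, and in most rows the 2 libraries of a time point after cutting have like colours, while the left 0 h column is darker than the right one.

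At 1 h these loci held a larger share of the summed FPKM than at any other time, as a peak at 1 h implies. Their summed FPKM was 36047 and 36830 in the 1 h libraries, which was 6.44% and 6.53% of the FPKM of all listed loci. The share had been 0.371% and 0.69% in the 0 h libraries and 3.47% and 3.17% in those of 0.5 h. It was back to 2.92% and 3.01% by 2 h and to 0.545% and 0.472% by 6 h. The last libraries, of 96 h, held 0.16% and 0.151%. The tissue was sequenced in bulk, so fewer cells of a type and less RNA per cell cannot be told apart.

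The level at 1 h differed widely between loci. The 1 h mean ranged from 15.8 to 1341 FPKM, with quartiles of 46.1 and 187.7, and 99 loci reached 100 FPKM, 18 reached 500 and 3 reached 1000. Potri.010G187800 was the highest. It had 1296 and 1387 FPKM at 1 h, against 454 and 402 at 0.5 h and 430.3 and 391 at 2 h. Its other values were 4.01 and 20.7 at 0 h, 11.8 and 10.1 at 6 h, and between 4.02 and 8.86 from 12 h to 96 h. Both 1 h libraries lay above every other library of this locus by more than the spread between the libraries of any time point. Potri.006G139400, the second highest with 1228 and 1253 FPKM at 1 h, kept 767 and 813 at 0.5 h and 700.2 and 683 at 2 h, and fell to 63.5 and 52.4 at 6 h and 8.90 and 6.49 at 96 h. At 0 h it had 30.3 and 120.5 FPKM. The 12 highest loci at 1 h reached 571 FPKM or more.

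The range of the 218 loci on the log2 scale ran from 4.004 to 8.89, with a median of 4.95. Potri.013G129800 had the widest. It was listed at 0.102 and 9.01 FPKM at 0 h, rose to 359 and 382 by 0.5 h and to 753 and 751 by 1 h, and stood at 365 and 415 after 2 h. It then fell to 23.3 and 19.1 by 6 h. Its later values were 1.73 and 4.42 after 12 h, 1.45 and 2.40 after 24 h, 1.49 and 1.14 after 48 h, and 0.510 and 0.665 after 96 h. The libraries at 1 h were the highest and those at 96 h the lowest after cutting, with no overlap with any neighbouring time point except between 12, 24 and 48 h. Potri.011G083900 came next with a range of 8.75, from 547 and 466 FPKM at 1 h to 0.219 and 0.148 at 96 h. Its level was already down to 0.685 and 0.879 at 6 h. Among the 12 loci with the widest range the smallest was 7.39. At the other end, Potri.009G154500 was just inside the threshold with a range of 4.004, and Potri.010G203000 just outside it with 3.9996.

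The peak was sharp in some loci and flat in others. Using 50% of the 1 h level as a mark, 72 loci were under it at both 0.5 h and 2 h (narrow), 67 were at or over it only at 0.5 h (early shoulder), 48 only at 2 h (late shoulder) and 31 at both (broad). The mean at 1 h was 1.01 to 17.4 times that at 0.5 h, with a median of 2.17, and 1.006 to 14.6 times that at 2 h, with a median of 2.54. The 2 libraries at 1 h lay above both at 0.5 h in 201 of the 218 loci, as they did in 24.1% of all loci tested, and above both at 2 h in 202, as in 30.3% of all loci tested. Both held in 187 loci. The rule used these contrasts, and nothing is read from the difference to all loci.

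**Figure D3:**
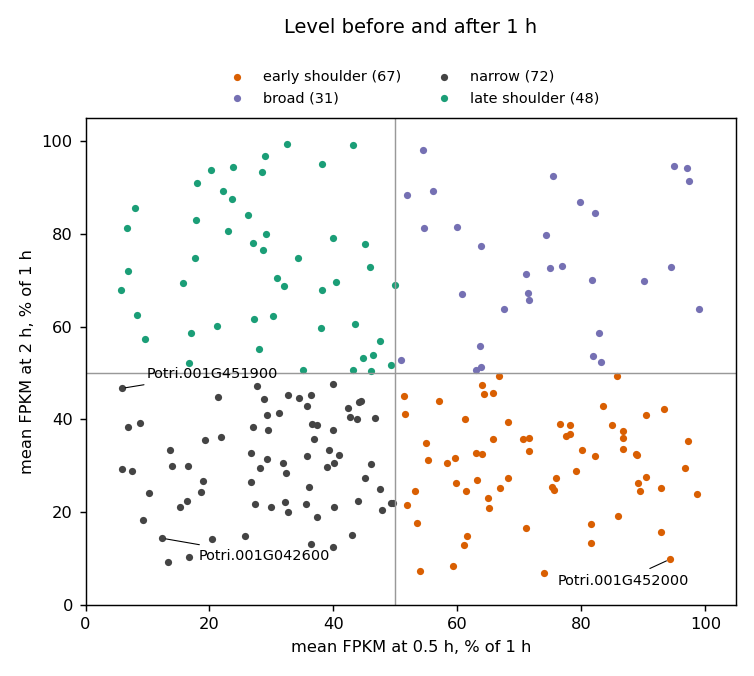
Mean FPKM at 0.5 h (horizontal) and at 2 h (vertical) of each of the 218 loci in percent of its 1 h mean, with lines at 50% that part the 4 shapes. The points fill all 4 fields, and the labelled neighbours Potri.001G451900 and Potri.001G452000 lie at opposite corners of the lower part.

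The sharpest peak belonged to Potri.001G042600. It rose from 51.0 and 55.4 FPKM at 0.5 h to 405 and 454 by 1 h and was back to 55.2 and 68.2 by 2 h. Before that it had stood at 12.7 and 7.86 (0 h), and afterwards it went to 29.7 and 20.1 by 6 h and 4.70 and 5.73 by 12 h. It had 17.9 and 18.4 FPKM after 24 h, 14.8 and 9.84 after 48 h, and 4.35 and 5.53 after 96 h. Both 1 h libraries lay far above every other library of this locus. On the log2 scale its lead at 1 h over the higher of the neighbouring time points was 2.78. Potri.002G112900 followed with a lead of 2.59, from 3.43 and 3.29 FPKM at 0.5 h to 24.0 and 26.6 at 1 h and 2.09 and 2.57 at 2 h. The locus listed next to each of them was also among the 5 with the largest lead, with 2.37 and 2.26.

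The flattest peak was that of Potri.003G009000. It had 562 and 579.9 FPKM at 1 h and 579 and 556 at 2 h, after 170.1 and 201 at 0.5 h. The libraries of 1 h and 2 h overlapped, so which of the 2 times was higher is not resolved for this locus. Potri.001G298300 was like it, with 79.3 and 84.7 FPKM at 1 h and 74.6 and 88.1 at 2 h. The 5 smallest leads were 0.03 or less on the log2 scale.

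The shapes also differed in the level at 0 h, which the rule did not use. The median FPKM at 0 h was 15.0 in the 31 broad loci, 6.00 in the 67 with an early shoulder, 2.16 in the 72 narrow loci and 1.25 in the 48 with a late shoulder. In percent of the 1 h level this was 8.48%, 6.94%, 2.06% and 1.74%. The median level at 6 h was 5.62%, 4.61%, 4.43% and 6.58% of that at 1 h in the same order. The 0 h order rests on files of another kind and on libraries that differ in these loci, and it has no test.

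After 6 h the median level sank further, but a few loci rose again. From 1 h to 96 h, 42 loci fell at every step, and 16 rose by at least 1 on the log2 scale at some step after 2 h. The rise came at 6 h in 1 locus, at 12 h in 9, at 24 h in 6 and at 96 h in 2. These counts use the mean of the 2 libraries, and a rise can rest on 1 of them. Potri.016G130700, chosen after its values were seen, had 1.04 and 0.870 FPKM at 6 h, and 1.08 and 5.68 at 12 h. The locus with the rise at 6 h was Potri.006G055600, chosen after its values were seen. It went from 98.7 and 102.5 FPKM at 1 h down to 33.1 and 31.5 by 2 h, up to 81.3 and 64.1 by 6 h, and down to 3.997 and 5.01 by 12 h. Both 6 h libraries were above both 2 h and both 12 h libraries, and below both 1 h libraries.

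Across the 8 time points after cutting, 190 of the 218 loci had a Pearson correlation of at least 0.9 with the median course of the set, and the median was 0.97. These points share the rule that chose the loci, and the values are a description. Only Potri.001G025100, with 0.44, and Potri.002G180800, with 0.48, were under 0.7. Both were chosen after their values were seen, and both dipped at 6 h and came back.

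Potri.002G180800 had 136.7 and 127.5 FPKM at 0.5 h, 143 and 136 at 1 h and 102 in both libraries at 2 h. It fell to 1.75 and 2.30 at 6 h, stood at 11.5 and 9.93 at 12 h, and returned to 72.8 and 91.3 by 24 h. Its last values were 62.9 and 63.6 after 48 h, and 53.5 and 54.0 after 96 h. The 6 h libraries were the lowest of all 18, and the 0 h libraries, with 217 and 172, were the highest. Potri.001G025100 fell from 36.5 and 35.4 FPKM at 1 h to 0.731 and 0.638 by 6 h, and regained 7.44 and 6.21 by 12 h and 17.5 and 23.3 by 24 h. Its 0 h libraries had 88.8 and 71.8. These 2 loci were the only ones of the 218 with a 0 h mean above the 1 h mean. Potri.001G025100 had 36.3 and 32.0 FPKM at 0.5 h, and in both loci the libraries of 0.5 h and 1 h overlapped, so their peak at 1 h is not resolved. The samples at 24, 48 and 96 h were taken whole days after 0 h.

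**Figure D4:**
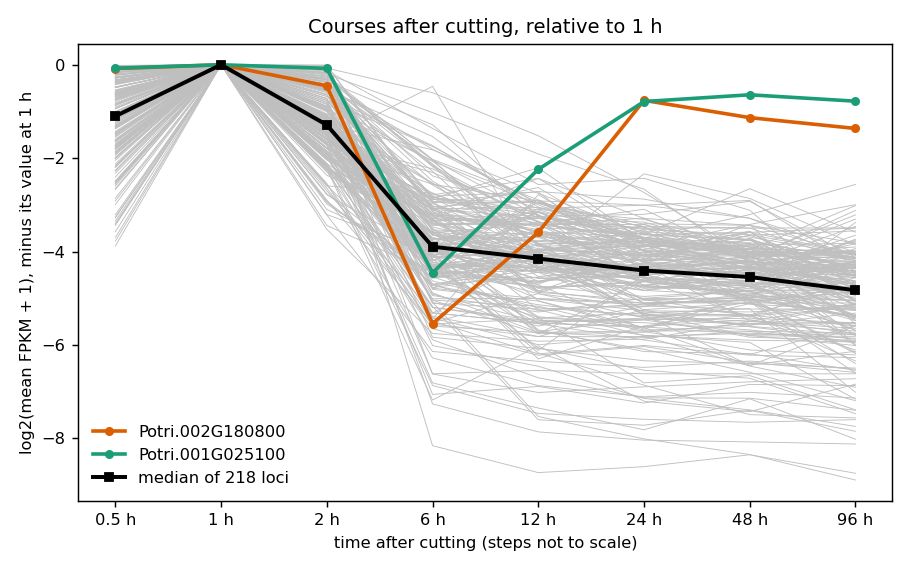
Course of each of the 218 loci (grey) from 0.5 h to 96 h as log2(mean FPKM + 1) minus its value at 1 h, with the median at each time point in black. The time axis is not to scale. Most lines stay low after 6 h, while Potri.002G180800 and Potri.001G025100 have their lowest point at 6 h and return by 24 h.

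The contrasts with 0 h were tested, since 0 h had no part in the choice, although the libraries of 0.5, 24 and 96 h had. The test covered the 26765 loci that reached 1 FPKM in 2 libraries or more, and the 218 passed this limit through the times at which the rule made them high. In the 0 h libraries and those of the compared time alone, 165 of them passed it at 24 h and 156 at 96 h. Log2(FPKM + 1) was fitted in all 18 libraries with limma, two-sided, and called at a Benjamini-Hochberg adjusted p below 0.05 over all loci tested. The fit takes 1 spread for each locus, pooled over all 18 libraries, and each SE below comes from it. In the set the median SD was 72.6% of the mean at 0 h, and 6.14% to 19.7% at the later times. The SE and p-values against 0 h can therefore be too small for these loci.

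At 0.5 h nearly all the loci were already above 0 h. Of the 218, 213 were called higher and 2 lower, against 26.0% and 23.7% of all loci tested. The median log2 fold change was 3.13 in the set and -0.01 over all loci tested. A high level at 0.5 h is common in loci chosen for a peak at 1 h, and of the loci with the same range highest at 0.5 h, 134 of 160 were called higher, and of those highest at 2 h, 92 of 125. Counting only loci with 1 listed transcript in the same fit, where the 0 h files are closest in kind, 160 of 162 were called higher, against 33.1% of all such loci. By limma 0 of the 162 were called lower, against 19.8%, and 0 were lower at an unadjusted p under 0.05. Without 0 h library 1, 208 of the 218 were called higher, and without 0 h library 2, 211. Most of the calls were thus made with either 0 h library alone. The remaining 0 h library then takes its spread from the later times, where it was smaller in the set. Both fits keep the difference in kind of the 0 h files, and the share of all loci called in them was not analysed here.

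For 10 loci both 0 h libraries are listed at 0, 9 of them with 1 listed transcript, and their 1 h means ranged from 15.8 to 114.7 FPKM. Potri.005G215700 was the highest of them, with 25.3 and 18.9 FPKM at 0.5 h, a rise to 112 and 117 by 1 h, and a fall to 42.3 and 39.2 by 2 h and 14.4 and 8.39 by 6 h. From 12 h on it lay between 0.221 and 2.64. Every library after cutting was above both 0 h libraries. In all, 60 loci had a 0 h mean under 1 FPKM and 59 had one of at least 10.

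The 2 loci called lower at 0.5 h than at 0 h were those with the dip at 6 h. The log2 fold change was -0.55 ± 0.13 (SE, limma, n = 2 against 2) for Potri.002G180800. It was -1.21 ± 0.14 (SE, limma, n = 2 against 2) for Potri.001G025100. Both loci were picked from the set by this contrast, so no p-value is given for them. They have 7 and 20 listed transcripts, the kind of locus in which the 0 h files differ most. The 3 loci not called, named after their values were seen, were Potri.004G051500, Potri.010G175200 and Potri.013G151500. Their log2 fold changes were 0.15, 0.42 and 0.58, with limma Benjamini-Hochberg adjusted p of 0.688, 0.145 and 0.0568.

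**Figure D5:**
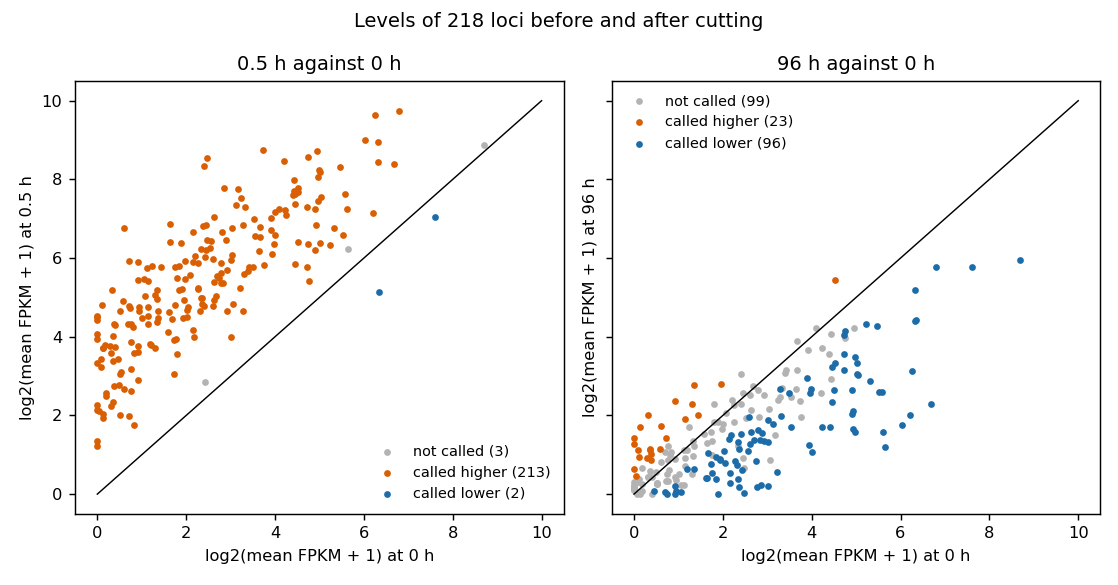
Level at 0.5 h (left) and at 96 h (right) against the level at 0 h for the 218 loci, each as log2(mean FPKM + 1), with the line of equal levels. At 0.5 h, 213 loci are called higher (orange) and 2 lower (blue), and at 96 h 23 are called higher and 96 lower.

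By 24 h the levels were spread around those at 0 h. Of the 218 loci, 37 were called higher and 62 lower by limma, against 35.0% and 23.4% of all loci tested. The median log2 fold change was -0.20, and 0.11 over all loci tested. These numbers depend on which 0 h library is used, and the share of all loci called with 1 left out was not analysed here. The rule, with its peak at 1 h and its wide range, favours low levels at 24 and 96 h, so the lower calls at these times are not independent of the choice of loci. Without 0 h library 1 the counts were 30 higher and 117 lower, and without 0 h library 2 they were 73 and 46, so the balance between the directions turned. With quantile normalization, which moved the median over all loci to -0.10, they were 23 and 97, against 26.1% and 32.7% of all loci tested.

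At 96 h more of the loci were below 0 h. Of the 218, 23 were called higher and 96 lower, against 42.4% and 22.5% of all loci tested, with a median log2 fold change of -0.59 in the set and 0.23 over all loci tested. The lowest mean of 126 of the 218 loci was at 96 h. The rule used that time and favours a low level there, so the lower calls are not independent of the choice of loci. Without 0 h library 1 the counts were 13 and 139, and without 0 h library 2 they were 47 and 63. With quantile normalization, which moved the median over all loci to -0.06, they were 7 and 144, against 29.9% and 34% of all loci tested. More loci were called lower than higher in each of these fits, but all cover the same chosen loci, so this adds no support. The share of all loci called with a 0 h library left out was not analysed here.

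The loci with an earlier or later peak gave other values in the same contrasts with the same 0 h libraries. Of the 160 loci highest at 0.5 h with the same range, 8 were called higher and 115 lower at 24 h, against 6 higher and 130 lower at 96 h. Of the 125 highest at 2 h, 56 were called higher and 23 lower at 24 h, against 38 higher and 34 lower at 96 h. The median log2 fold change at 96 h was -2.51 for the loci highest at 0.5 h, -0.59 for the 218 highest at 1 h and 0.09 for those highest at 2 h. These sets share the 0 h libraries and were chosen by their peaks, and the difference between them was not tested. The median ratio of 0 h library 2 to library 1 also differed, with 2.49, 2.76 and 1.155 in the same order. For the loci highest at 0.5 h or 2 h, no fit was run with a 0 h library left out.

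The locus furthest below its 0 h level at 96 h was Potri.013G151500. It had 51.9 and 46.7 FPKM at 0 h and 71.2 and 81.2 after 1 h, and went down to 34.1 and 23.9 by 6 h and to 1.54 and 1.08 by 96 h, and the libraries of these 4 times did not overlap. Its log2 fold change at 96 h was -4.45 ± 0.24 (SE from the limma spread pooled over all 18 libraries, n = 2 against 2). Potri.014G017300 fell from 73.4 and 129.1 FPKM at 0 h to 4.45 and 3.29 at 96 h, after 401 and 416 at 1 h. The locus furthest above its 0 h level was Potri.009G049900. It rose from 0.177 and 0.310 FPKM at 0 h to 3.58 and 3.79 by 0.5 h and 43.7 and 55.3 by 1 h. It was back to 13.4 and 15.2 by 2 h and ended with 3.29 and 2.76 after 96 h. Its log2 fold change at 96 h was 1.69 ± 0.17 (SE from the same pooled spread, n = 2 against 2). Potri.007G076800 went from 0 and 0.20 FPKM at 0 h to 58.6 and 46.9 at 1 h and 1.79 and 2.75 at 96 h. Both of these loci had narrow peaks, with a 1 h mean 13.4 and 16.8 times that at 0.5 h. Potri.013G151500 and Potri.009G049900 were picked as the extremes of the set in this contrast, so no p-value is given for them. The rule also used the 96 h libraries and favours low levels there.

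Some of the loci were neighbours in the list of identifiers, whose numbers run along a chromosome. The files hold no coordinates, and distances were not analysed here. There were 16 groups of 2 or 3 loci directly next to each other, with 34 of the 218 loci in all, and 54 loci in 23 groups lay within 5 places. How often other loci that peak together lie so close was not analysed here. The share of tested loci in the set ranged from 0.223% on chromosome 17, where the tables end, to 1.32% on chromosomes 2 and 16. Neighbours can be near-identical copies, and the sources used here do not say how reads shared between copies were placed.

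The largest group held 5 of the 6 loci from Potri.016G131300 to Potri.016G131800. Their 1 h means ranged from 52.6 to 501 FPKM, while the sixth, Potri.016G131500, did not go over 0.335 FPKM in any library. Potri.016G131300 rose from 331 and 302.2 FPKM at 0.5 h to 464 and 539 by 1 h, and was down to 133 and 138 by 2 h. Potri.016G131700, listed at 0 in both 0 h libraries, had 13.6 and 15.1, then 47.8 and 57.3, then 11.1 and 11.8. In both loci the 1 h libraries were above all others.

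Neighbours did not always share a shape. Potri.001G451900 rose from 6.83 and 4.53 FPKM at 0.5 h to 91.8 and 102.9 by 1 h, and still had 50.2 and 40.7 after 2 h and 4.61 and 4.48 after 6 h. Next to it, Potri.001G452000 was already at 91.9 and 83.5 by 0.5 h, with 102.8 and 83.3 after 1 h, and dropped to 8.67 and 9.57 by 2 h and 0.408 and 0.262 by 6 h. The pair reached about the same level at 1 h. The first was far lower than the second at 0.5 h and far higher at 2 h and 6 h, with no overlap of libraries at those times. The pair was chosen after its values were seen.

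The loci of the set had few listed transcripts. Of the 218, 162 or 74.3% had 1 listed transcript, as had 53.7% of all loci tested and 42.1% of the 11553 tested loci that reached the lowest 1 h mean of the set at some time after cutting. The share was 70.2% among all 934 loci with a range of at least 4, 120 of 160 among those highest at 0.5 h and 84 of 125 among those highest at 2 h, so it is not shown to belong to the peak at 1 h. The 162 transcripts had a median length of 1222 bp, with quartiles of 864 and 1648, and the 14294 tested loci of that kind with a length had 1330 bp, with quartiles of 833 and 1946. Among the 56 loci with several transcripts, 48 had the same leading transcript at 0.5, 1 and 2 h, and it held a median of 53.1% of the locus FPKM at 1 h.

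Some loci outside the set had a like course with a smaller range. Among 2410 tested loci highest at 1 h with a range under 4, the 2 most like the median course were Potri.004G168900 and Potri.002G240000. Both had a Pearson correlation of 0.998 with it over the 8 time points after cutting. Potri.004G168900 had a mean FPKM of 27.6 after 0.5 h, 48.1 after 1 h, 26.8 after 2 h, 9.70 after 6 h and 4.98 after 96 h. Potri.002G240000 had 42.3, 62.3, 40.1, 15.9 and 11.5 at the same times. Their ranges on the log2 scale were 3.04 and 2.37.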

How the data were processed

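For each library the authors deposited a table of transcripts and FPKM, a unit named per the file headers of the 0 h tables only, while the later headers give the library title. The submitters' processing notes list Bowtie2 2.2.3 and HISAT2 2.1.0 and do not say what each did. Build, annotation and FPKM tool were not given in the sources used here. Every table ends at line 65536, with 65535 transcripts of 36385 loci and identifiers up to chromosome 17, and loci beyond that point were not analysed here.

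FPKM were summed per locus and analysed as log2(FPKM + 1), which understates the change of low loci. Read totals were recovered from low FPKM, taken as single reads on transcripts of a whole length. Of these low values 35.8% and 33.6% fitted in the 0 h libraries, and 51.0% to 57.3% in the later ones. Transcript lengths (from 60 to 17000 bp) were then chosen to make all values above 0 after cutting whole numbers of reads, without the 0 h values. limma 3.58.1 (R 4.3.3; trended, robust eBayes) was fitted to the 26765 loci with at least 1 FPKM in at least 2 libraries, with 1 mean per time point. The procedure was also run on simulated data with few changed loci and 1 spread per locus. These contrasts differ from that setting, and no support is drawn from it. No contrast among the times after cutting was tested, because the rule used them.

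The loci, the rule and the tests were chosen with earlier results of these data known. Loci were named from fixed lists of the widest and highest, the sharpest and flattest, the furthest from 0 h, those at the threshold, neighbours and the most alike. At most 2 identifiers are given for each, because the files do not pair them with gene names. The planned gene lists, cell type markers and promoter motifs need such names and were not analysed here, and the labelled tissue was not checked against markers.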

Additional observations from a re-analysis of the deposited data

How the results depend on the processing

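The rule gave 218 loci. It gave 444 with a pseudocount of 0.1, 464 with a range of at least 3 and 108 with a range of at least 5. Quantile normalization gave 257 loci, 212 of them among the 218, loci with 1 listed transcript 162, and single transcripts 211. With 1 library per time point it gave 213 and 261 loci, 194 and 205 of them among the 218, and 181 of the 218 were chosen in each library alone.

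The members called higher at 0.5 h than at 0 h numbered between 160 and 213 over the 10 alternatives, the lowest among the 162 loci with 1 listed transcript. Leaving out 1 replicate gave 208 to 211 higher and 2 lower. Among loci with 1 listed transcript, 0 were called lower by limma, and 0 were lower at an unadjusted p under 0.05. At 24 h, quantile normalization gave 23 higher and 97 lower, and at 96 h it gave 7 higher and 144 lower. It moved the median log2 fold change over all loci from -0.01 to -0.18 at 0.5 h. At 24 h this median went from 0.11 to -0.10, and at 96 h it went from 0.23 to -0.06. With only the 4 libraries compared, 22 were called higher and 35 lower at 24 h, against 11 higher and 50 lower at 96 h. Fewer of the 218 loci then passed the filter on low values, 165 and 156. The share of all loci called with only these 4 libraries was not analysed here. Leaving out 1 replicate gave 30 to 73 higher and 46 to 117 lower at 24 h, and 13 to 47 higher and 63 to 139 lower at 96 h. The lone library of a time point is then assumed to vary like the others, and the share of all loci called was not analysed here. The cause of these shifts was not tested. Of 68 values over the alternatives run, 52 stayed within 1.5 times the main count. At 0.5 h, 10 of 10 higher and 9 of 10 lower counts stayed, from main counts of 213 and 2 of the 218 loci. At 24 h it was 7 of 10 for both directions, and at 96 h 6 of 10 higher and 8 of 10 lower counts. At 24 h the direction with more calls turned without 0 h replicate 2, with 73 higher and 46 lower.

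The replicate numbers were given in the order of the samples and do not pair them. The correlation of the deviations of the replicates lay between -0.197 and 0.21 over the 36 pairs of time points, with a median of -0.003. The replicate block gave 213 higher and 2 lower at 0.5 h, 38 higher and 60 lower at 24 h, and 24 higher and 93 lower at 96 h.

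With 2 libraries per time point, a single library can decide a call. Levels after 12 h rest on few reads for many of the loci. Comparisons with 0 h are confounded with the difference in kind of the 0 h files.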
